A study of Mus musculus with 24 samples.

Results

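The 35 genes described here make up much of the cell's defence against peroxides, superoxide and oxidised thiols: the transcription factor NRF2 (Nfe2l2) with its repressor and partners, the enzymes that make and regenerate glutathione, the glutathione peroxidases, the thioredoxins, the peroxiredoxins with sulfiredoxin, the superoxide dismutases and catalase, and the glutaredoxins. They were chosen by name as antioxidant genes other than the glutathione S-transferases. Of the 35, 34 have an entry of their own among the 19895 entries of the deposited count table, and all 34 are among the 11438 entries that were tested. These had at least 1 read in each of the 24 libraries, named a single gene and shared their symbol with no other entry, which left out 752 joined entries and 19 with a repeated symbol. Txnrd2, the mitochondrial thioredoxin reductase, shares an entry with overlapping genes and was not tested.

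Mouse pancreatic organoids were sequenced to ask which mRNAs tumour cells load onto ribosomes, and how a block of the RNA helicase eIF4A alters that loading. The N organoids came from normal ductal tissue of wild-type C57Bl/6J mice. The KP organoids came from pancreatic tumours of mice in which Cre, driven by the Pdx1 promoter in the pancreatic epithelial lineage, switched on the engineered tumour alleles, Trp53 R172H among them. Each kind received vehicle or the rocaglate eIF4A inhibitor CR-31 (CR1-31-b in the sample labels) at 10 nM for 1 h, with 3 replicates of each of the 4 combinations, and cycloheximide was given before harvest. From each of the 12 lysates 2 libraries were made, one of total mRNA and one of polysome-associated mRNA (mRNA carrying at least 3 ribosomes). Neither the labels nor the study's methods say that replicates of a group came from separate cultures or animals, so the p-values measure the spread between these samples only, and that spread may be technical.

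NRF2 is a basic leucine zipper activator that KEAP1 holds in the cytoplasm and hands to the proteasome. When oxidants or electrophiles modify cysteines of KEAP1, NRF2 accumulates, pairs with a small MAF protein and binds antioxidant response elements near genes for glutathione synthesis, thioredoxin recycling and quinone reduction. In pancreatic cancer models NRF2 is known for lowering reactive oxygen species and for maintaining the translation machinery. Peroxides themselves are removed by 2 enzyme families, the glutathione peroxidases, which draw on glutathione, and the peroxiredoxins, which draw on thioredoxin, and both draw in the end on NADPH.

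Several glutathione peroxidases and thioredoxin reductase 1 carry selenocysteine at the active site, encoded by an in-frame TGA that would otherwise stop translation, while other family members carry cysteine. The stretches around that codon in the annotated transcripts (GENCODE M21, GRCm38) are shown because they separate the family into members whose polysome loading includes decoding of a stop codon and members for which it does not. Capitals mark the catalytic codon, and each is given 5′ to 3′ on the coding strand.
Gpx1, codon 47 of 201, chr9:108339451-108339453: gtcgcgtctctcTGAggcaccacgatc
Gpx2, codon 40 of 190, chr12:76795256-76795258: gtggcgtcactcTGAggaacaactacc
Gpx3, codon 73 of 226, chr11:54907256-54907258: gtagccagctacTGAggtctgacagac
Gpx4, codon 129 of 253, chr10:80054737-80054739: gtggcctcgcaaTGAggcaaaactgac
Gpx7, codon 56 of 186, chr4:108403430-108403432: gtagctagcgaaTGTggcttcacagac
Gpx8, codon 79 of 209, chr13:113045661-113045663: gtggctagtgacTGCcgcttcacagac
Txnrd1, codon 612 of 613, chr10:82896037-82896039: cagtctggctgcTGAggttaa
Gpx1, Gpx2, Gpx3 and Gpx4 thus have TGA in the interior of the coding sequence, Gpx7 and Gpx8 have the cysteine codons TGT and TGC, and Txnrd1 has TGA as its next-to-last sense codon.

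Libraries held between 47308461 and 267463046 counted reads (median 102984735), and the member genes together took 0.697% to 1.01% of each. The lowest count of any member in any library was 2, for Gpx7, and members other than Gpx7, Nqo1, Gpx3 and Gpx8 had at least 821 reads in every library. Organoids were ductal by their markers: the 9 duct epithelium genes summed to between 11300 and 11900 CPM (counts scaled to the library total, for the member genes with edgeR's TMM factor) in N vehicle polysome libraries and between 6010 and 9610 in KP, where Cldn4, Sox9, Cdh1, Epcam and Krt18 passed the test as lower and Krt7 as higher, although the Krt7 libraries overlapped. Krt8 had 2980 to 3840 CPM in N and 1520 to 2720 in KP and did not pass. The part of the duct marker values in the results below was not tested. The 8 fibroblast genes summed to 0.597 to 1.58 CPM in N and 0.103 to 0.126 in KP, with Lum and Col3a1 at 0 in both. The acinar genes stayed within 3.34 to 5.17 CPM with Ptf1a and Cpa1 at 0, the endocrine genes were below 0.17 CPM with Ins1, Ins2 and Gcg at 0, the endothelial genes were at or below 0.343 CPM, and the 3 blood cell genes found summed to 2.70 to 17.7 CPM in all vehicle polysome libraries but 1. In that library, KP vehicle 3, they reached 29.5 CPM, with Lyz2 at 21.2 and Ptprc at 2.74, beside at most 0.726 and 0.0719 in the other 5. Without KP vehicle 3, 13 members were higher and 2 lower on polysomes beside 37.9% of all genes called, with Gclm and Glrx3 gained and Gpx3 lost, and the part of these blood cell values in the results was not tested. In such bulk samples fewer cells of a type and less RNA per cell cannot be told apart. No sequencing lane held both N and KP libraries, so lane and organoid type cannot be told apart in any comparison of KP with N.

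Some libraries did not match the lysate in their label. Across 11438 genes, the deviations of 8 of the 12 polysome libraries from the mean of their organoid kind correlated best with the total mRNA library of the same lysate (r = 0.66 to 0.91). The polysome library labelled N vehicle 3 correlated at r = 0.35 with its own total library and at 0.82 with that of N CR-31 3, and the one labelled N CR-31 3 at 0.33 with its own and 0.71 with that of N vehicle 3. The polysome library labelled KP CR-31 1 correlated at r = 0.21 with its own total library and at 0.69 with that of KP vehicle 1. For N vehicle 2 both values were close (0.66 with its own and 0.70 with N CR-31 2). Whether libraries of N replicate 3 or of KP replicate 1 were exchanged between treatments, and whether on the polysome or the total side, was not tested. An exchange of both polysome libraries of N replicate 3 would turn the sign of its CR-31 to vehicle ratio on polysomes. An exchange of both total libraries would turn the sign of that ratio in total mRNA. Vehicle and CR-31 libraries of KP replicate 1 deviated together at r = 0.80 on polysomes and 0.45 in total mRNA. Labels were kept as given, and the counts of members that differed between KP and N are given with and without both lysates of N replicate 3 and of KP replicate 1.

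Compared by RPKM (reads scaled to gene length and library total), the scale on which genes of different length can be set side by side, Gpx4, Sod1, Prdx1, Gpx2 and Gpx1 stood at the top. In KP vehicle polysome-associated mRNA the highest mean was that of Gpx4, which reduces lipid peroxides in membranes (1140 ± 273 RPKM, mean ± SD, n = 3), followed by the cytosolic superoxide dismutase Sod1 (1050 ± 157) and the abundant cytosolic peroxiredoxin Prdx1 (mean 839, with 1033, 703 and 783 in the 3 libraries). The epithelial glutathione peroxidase Gpx2 (750 ± 159 RPKM) and the ubiquitous Gpx1 (623 ± 67) came next. Neighbours in this order had overlapping libraries or differed by less than the sum of their SDs, so their order is not settled at 3 replicates. In N organoids the highest was Gpx2 (882 ± 433 RPKM), then Prdx1 (760 ± 175), Gpx4 (688 ± 117), Sod1 (662 ± 139) and Gpx1 (598 ± 175), with neighbours again closer than the sum of their SDs. The regulators were far lower: Nfe2l2 had 124 ± 42.9 RPKM in N and 122 ± 38.8 in KP, and Keap1 17.9 ± 1.15 and 22.5 ± 2.92. At the bottom stood Gpx7 (0.379 ± 0.247 RPKM in N, 0.244 ± 0.103 in KP), Nqo1 (0.55 ± 0.494 and 1.53 ± 0.786), Gpx3 (2.98 ± 1.25 and 1.06 ± 0.604) and, in KP, Gpx8 (9.86 ± 5.63 and 1.46 ± 1.36). In N the mean of Glrx2 (9.03 ± 1.98 RPKM) lay below that of Gpx8. Reads that mapped to more than 1 place were discarded upstream, so genes with near-identical processed copies in the genome, among them Txn1, Prdx1, Sod1 and Gpx4, may be undercounted.

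**Figure D1:**
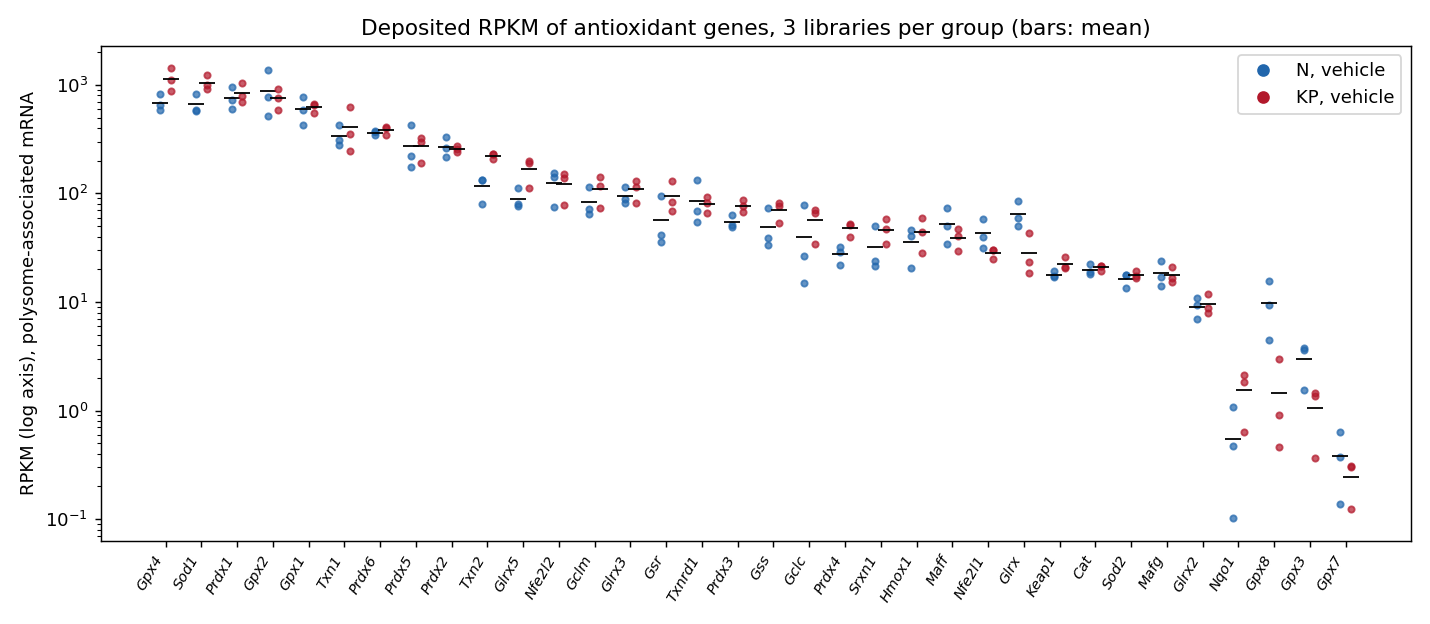
Deposited RPKM of each tested member in vehicle polysome-associated mRNA on a log axis, with blue points for the 3 N libraries, red points for the 3 KP libraries and a bar at each mean, ordered from high to low by the KP mean. Gpx4, Sod1, Prdx1 and Gpx2 stand at the top, and Nqo1, Gpx8, Gpx3 and Gpx7 at the bottom.

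Comparing KP with N organoids under vehicle asks how the tumour cells' defence genes are transcribed and loaded on ribosomes. Polysome-associated mRNA of 11 of the 34 member genes was higher in KP and of 3 lower, at an adjusted p below 0.25, the threshold of the study's own analysis (edgeR's quasi-likelihood test, adjusted over all 11438 genes). Higher were Txn2, Glrx5, Prdx4, Gsr, Gpx4, Sod1, Srxn1, Gss, Prdx3, Keap1 and Nqo1. They hold the 2 last enzymes of glutathione supply, 3 mitochondrial thiol genes (Txn2, Glrx5 and Prdx3), enzymes against peroxide, superoxide and quinones, and the repressor of NRF2. Lower were Gpx8, Gpx3 and Glrx. The members' share of calls, 41.2%, lay near the 43.1% of all genes called, so the number of calls is no result about these genes. By direction, 32.4% of members were called higher against 20.9% of all genes, and 8.82% lower against 22.2%. The median log2 fold change over the members was 0.28, with 27 values above 0 and 7 below, beside -0.034 over all genes. With upper-quartile scaling the median of all genes moved to -0.128 and the members split 10 higher to 4 lower, losing Gss and gaining Nfe2l1 as lower. At an adjusted p below 0.05, 4 members remained, Txn2, Glrx5, Prdx4 and Gpx8. Leaving out single libraries cut the 14 calls to as few as 7 (without N vehicle 2, KP vehicle 1 or KP vehicle 2), beside 28.5% to 32.3% of all genes. Without both lysates of N replicate 3 there were 17, beside 52.6% of all genes, with Prdx1, Prdx5, Prdx6, Sod2, Glrx3 and Cat joining the higher genes and Nfe2l1 the lower, while Gsr, Srxn1, Nqo1 and Gpx3 lost their calls. Without both lysates of KP replicate 1, 6 were higher and 1 lower, beside 24.6% of all genes. Txn2, Glrx5, Prdx4, Sod1 and Gpx8 were called in all 19 alternative settings at the 0.25 threshold.

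In total mRNA fewer members differed, 6 higher (Keap1, Gss, Gsr, Glrx5, Prdx3 and Cat) and 5 lower (Gpx8, Gpx3, Glrx, Maff and Gpx1). That is 32.4% of the members beside 28.5% of all genes, 17.6% higher beside 13.1%, and 14.7% lower beside 15.4%. The median log2 fold change was 0.19 over the members and -0.027 over all genes. At the stricter 0.05 one member, Glrx, stayed among the calls of total mRNA. These calls rest on few libraries: without KP vehicle 1 there was 1 call among the members, without N vehicle 3 there were 3, without KP vehicle 2 there were 4, without N vehicle 2 there were 5, and without both N replicate 3 and KP replicate 1 there were 0, beside 11.8% to 20.5% of all genes in these settings. Without both lysates of N replicate 3 there were 7, with Sod1 gained and Gsr, Glrx5, Cat, Maff and Gpx1 lost, beside 19.3% of all genes, and without both lysates of KP replicate 1 there were 6, with Gsr, Cat, Maff, Gpx1 and Gpx8 lost, beside 18.1%. Without N vehicle 1 there were 15, beside 32.8%, with Gclc, Txnrd1, Srxn1 and Nqo1 joining the higher genes and Gpx2, Prdx2 and Prdx5 the lower, and Prdx3, Cat and Maff lost.

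**Figure D2:**
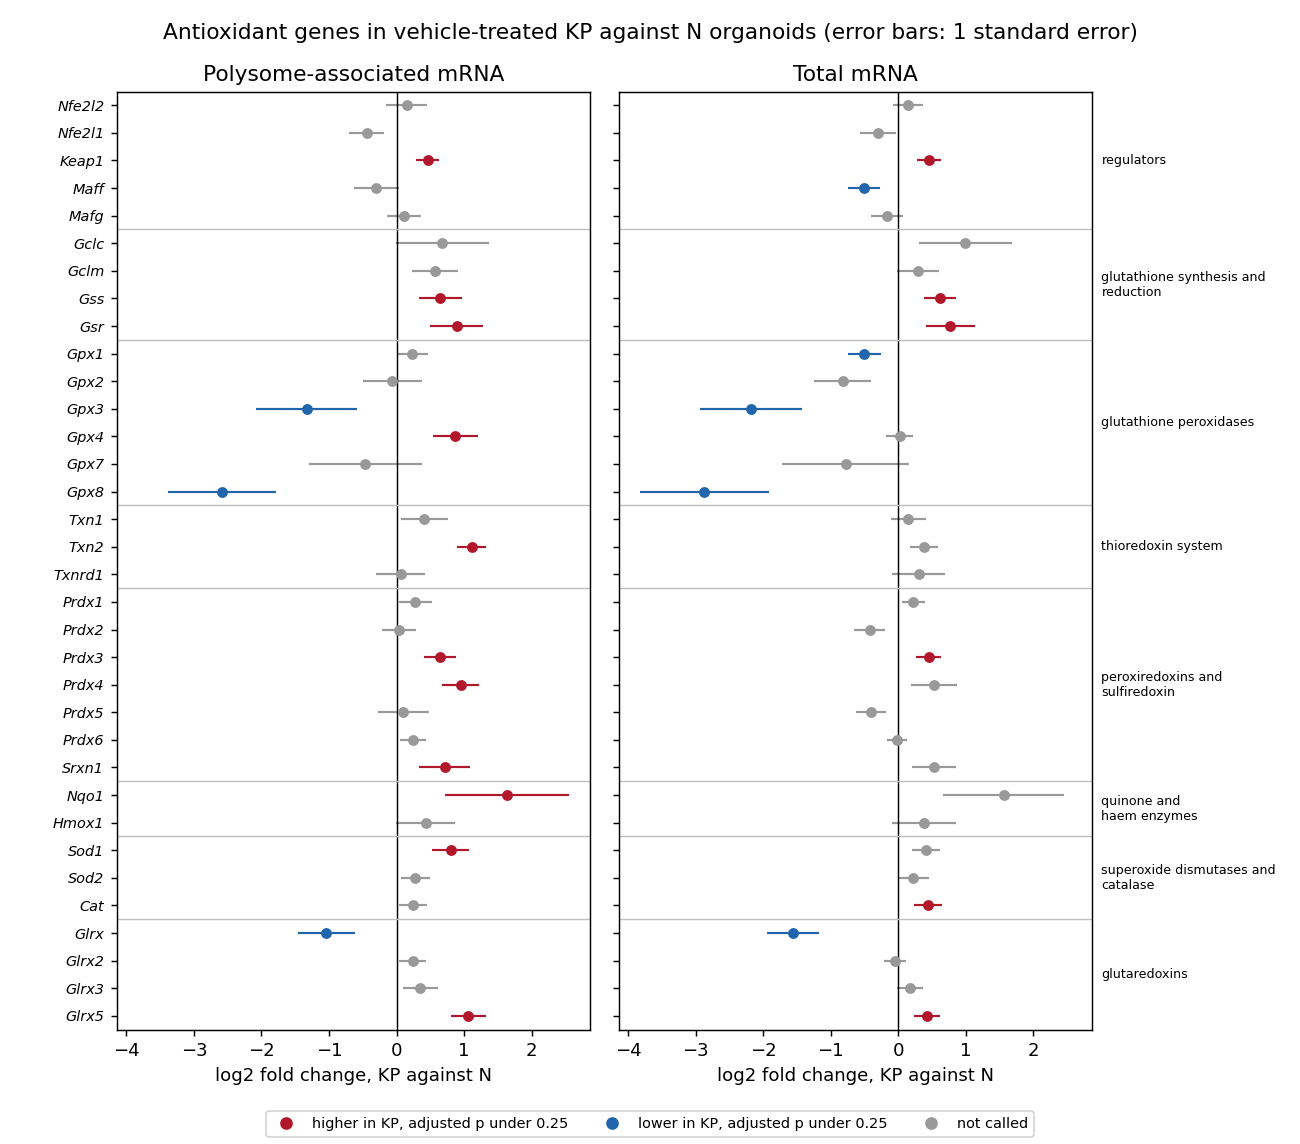
Log2 fold change of KP against N under vehicle for each tested member, in polysome-associated mRNA (left) and total mRNA (right), with bars of 1 SE; red marks genes higher and blue genes lower at an adjusted p below 0.25, and grey those not called. Txn2, Glrx5 and Prdx4 are red on polysomes and to the right of 0, and Gpx8, Gpx3 and Glrx are blue in both panels.

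Among the regulators, Keap1 was higher in KP and NRF2 itself did not pass the test. Keap1 (chr9:21229730-21239361, minus strand; all gene positions are on GRCm38) encodes the adaptor that presents NRF2 to a ubiquitin ligase. Its polysome-associated mRNA had 53.7, 53.0 and 65.0 CPM in N vehicle replicates 1, 2 and 3 and 87.6, 74.6 and 73.9 in KP. All 3 KP libraries were above all 3 N libraries. The log2 fold change was 0.46 ± 0.17 (± SE here and below, adjusted p = 0.0861), with 0.46 ± 0.18 in total mRNA (adjusted p = 0.14). The polysome call was lost without KP vehicle 1 or without both lysates of N replicate 2, and the total call without any 1 of N vehicle 2, N vehicle 3, KP vehicle 1 or KP vehicle 2 (adjusted p up to 0.315 and 0.401 over the alternatives). Nfe2l2 (chr2:75675513-75704641, minus strand) had 332, 354 and 198 CPM in N polysome libraries and 362, 218 and 401 in KP. The groups overlapped, with the lowest value in N 3 and the next lowest in KP 2. Its log2 fold change was 0.15 ± 0.30 on polysomes and 0.14 ± 0.22 in total mRNA (adjusted p = 0.772 and 0.74). Nfe2l1, the related factor that responds to proteasome stress, had -0.44 ± 0.26 on polysomes (adjusted p = 0.264). Of the small MAF partners, Mafg had 0.11 ± 0.25 (adjusted p = 0.797), while Maff was lower in total mRNA (-0.51 ± 0.24, adjusted p = 0.229), a call lost without any 1 of N vehicle 1, 2 and 3 and KP vehicle 1 and 3.

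Glutathione is made in 2 steps, by glutamate-cysteine ligase (catalytic Gclc, modifier Gclm) and by glutathione synthetase (Gss), and its oxidised form is reduced by glutathione reductase (Gsr). Gss and Gsr were higher in KP, and the ligase subunits did not pass with all libraries. Gss (chr2:155563181-155592810, minus strand) had 68.9, 58.4 and 149 CPM in N polysome libraries and 151, 173 and 108 in KP. N 3 lay among the KP values, so the groups overlapped on polysomes. In total mRNA, with 87.4, 79.6 and 82.6 CPM in N and 128, 159 and 97.8 in KP, they did not. The log2 fold changes were 0.65 ± 0.32 on polysomes and 0.62 ± 0.24 in total mRNA (adjusted p = 0.181 and 0.129). Gsr (chr8:33652523-33698163) had 236, 101 and 100.4 CPM in N polysome libraries and 362, 251 and 196 in KP. N 1 was above KP 3, and the other 2 N libraries were well below all of KP. Its log2 fold changes were 0.89 ± 0.39 and 0.77 ± 0.36 (adjusted p = 0.135 and 0.21). Without both lysates of N replicate 3 the polysome value of Gss was 1.18 ± 0.23 (adjusted p = 0.00929) and that of Gsr 0.68 ± 0.44 (adjusted p = 0.285). Neither gene was stable on polysomes to the loss of single libraries: the Gss call ended without any 1 of N vehicle 1 and 2 and KP vehicle 1 and 2, and the Gsr call without N vehicle 2, N vehicle 3 or KP vehicle 1 (adjusted p up to 0.497 and 0.589). In total mRNA both calls ended without any 1 of N vehicle 2 and 3 and KP vehicle 1 and 2.

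Gclc (chr9:77754535-77794485) varied most among the replicates of this group. It had 253, 46.3 and 95.1 CPM in N polysome libraries and 235, 269 and 125 in KP. N 1 lay between KP 1 and KP 2, and N 2 and 3 were below every KP library. The log2 fold change was 0.68 ± 0.69 (adjusted p = 0.525), and in total mRNA 0.99 ± 0.69 (adjusted p = 0.417). Its value turned on single N libraries: without N vehicle 1 it was called higher, at 1.55 ± 0.70 on polysomes and 1.96 ± 0.70 in total mRNA (adjusted p = 0.153 and 0.101), and without N vehicle 2 the polysome value was 0.26. Gclm (chr3:122245557-122270732) had 221, 123 and 156 CPM in N and 253, 327 and 163 in KP on polysomes. Its groups overlapped, and its log2 fold change was 0.57 ± 0.34 (adjusted p = 0.26), just outside the threshold. It was called higher without N vehicle 1 (0.81 ± 0.36, adjusted p = 0.152) or KP vehicle 3 (0.80 ± 0.35, adjusted p = 0.152).

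The glutathione peroxidases moved in opposite directions, with Gpx4 higher and Gpx3 and Gpx8 lower on KP polysomes. Gpx8 (chr13:113042753-113046410, minus strand), a cysteine-type peroxidase anchored in the endoplasmic reticulum, had 9.0, 14.5 and 4.72 CPM in N polysome libraries and 0.971, 0.520 and 3.25 in KP. In total mRNA it had 9.95, 27.2 and 7.19 and 0.973, 0.483 and 4.58 CPM. KP was below N in every library of both measures, with KP 3 the highest of its group and N 3 the lowest of its own. Its polysome-associated mRNA was 5.96-fold lower (-2.58 ± 0.80 on the log2 scale, adjusted p = 0.0489) and its total mRNA 7.32-fold lower (-2.87 ± 0.95, adjusted p = 0.0817, a call lost without KP vehicle 1 or without both lysates of N replicate 2). The summed fibroblast markers moved with it, at 0.597 to 1.58 CPM in N and 0.103 to 0.126 in KP polysome libraries, with 3 of the 8 genes at 0 throughout in each group, and their part in the Gpx8 difference was not tested.

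Gpx3 (chr11:54902453-54910377), the secreted plasma peroxidase, had 2.19, 5.02 and 5.99 CPM in N polysome libraries and 0.583, 2.30 and 2.36 in KP. KP 2 and KP 3 were slightly above N 1, so the groups overlapped. In total mRNA it had 2.84, 10.9 and 7.55 CPM in N and 0.369, 1.60 and 2.72 in KP, with every KP library below every N library. The log2 fold change was -1.33 ± 0.75 on polysomes (adjusted p = 0.242) and -2.18 ± 0.75 in total mRNA (adjusted p = 0.0937). The polysome call was lost without any 1 of 5 of the 6 vehicle lysates (all but N vehicle 1), and the total call without N vehicle 2 or KP vehicle 1 (adjusted p up to 0.513 and 0.386).

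Gpx4 (chr10:80047166-80056439) showed a difference on polysomes where total mRNA showed almost none. It had 517, 453 and 722 CPM in N polysome libraries and 979, 1331 and 782 in KP. Every KP library was above every N library, with KP 3 only a little above N 3. In total mRNA it had 519, 704 and 693 and 572, 702 and 669 CPM, with overlapping groups. Polysome-associated Gpx4 mRNA was 1.83-fold higher in KP (0.87 ± 0.33, adjusted p = 0.0917), and the total mRNA had a log2 fold change of 0.02 ± 0.20 (adjusted p = 0.965). The polysome call was lost without N vehicle 2 or KP vehicle 2 (adjusted p up to 0.33). Gpx1 (chr9:108338903-108340343) was lower in KP total mRNA (-0.50 ± 0.24, adjusted p = 0.234), a call lost without any 1 of the vehicle lysates other than N vehicle 1, and had 0.23 ± 0.23 on polysomes (adjusted p = 0.519). Gpx2 (chr12:76792333-76795554) had -0.82 ± 0.42 in total mRNA and -0.06 ± 0.43 on polysomes (adjusted p = 0.263 and 0.941 in edgeR), and DESeq2 called it lower in total mRNA (adjusted p = 0.213). The test of polysome-associated against total mRNA is given with translational efficiency.

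The thioredoxin system reduces protein disulfides with electrons passed from NADPH by thioredoxin reductase. Its mitochondrial member Txn2 gave the smallest adjusted p of the 34 genes in the polysome comparison. Txn2 (chr15:77915047-77929006, minus strand) had 160.0, 157 and 108 CPM in N polysome libraries and 307, 328 and 282 in KP. The lowest KP library was above the highest N library by more than the range of either group. Its polysome-associated mRNA was 2.16-fold higher (1.11 ± 0.22, adjusted p = 0.00841). In total mRNA it had 160.1, 201 and 182 CPM in N and 222, 268 and 219 in KP, again without overlap, and a log2 fold change of 0.38 ± 0.21 that did not pass the test (adjusted p = 0.277). The cytosolic partners did not pass on polysomes either: Txn1 had 0.41 ± 0.35 (adjusted p = 0.437), and Txnrd1 (chr10:82833951-82897712) had 413, 166 and 245 CPM in N and 319, 303 and 235 in KP, all 3 KP values lying inside the range of N.

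Of the peroxiredoxins, the endoplasmic reticulum member Prdx4 and the mitochondrial Prdx3 were higher on KP polysomes, as was Srxn1, sulfiredoxin, which repairs over-oxidised peroxiredoxins. Prdx4 (chrX:155323918-155340754, minus strand), which couples peroxide removal to disulfide formation in secreted proteins, had 19.99, 28.4 and 29.8 CPM in N polysome libraries and 52.2, 43.6 and 54.9 in KP. The groups did not overlap, and its mRNA was 1.93-fold higher (0.95 ± 0.27, adjusted p = 0.0358). In total mRNA N 2 was above KP 2 and the log2 fold change was 0.53 ± 0.34 (adjusted p = 0.372). Prdx3 (chr19:60864051-60874556) had 66.1, 67.5 and 96.5 CPM in N and 115, 140.1 and 103 in KP polysome libraries. These did not overlap either, and the log2 fold changes were 0.64 ± 0.24 on polysomes and 0.45 ± 0.18 in total mRNA (adjusted p = 0.0907 and 0.152). Its polysome call was lost without N vehicle 2 or KP vehicle 2 and its total call without any 1 of N vehicle 1 and 3 and KP vehicle 1 and 2. Srxn1 (chr2:152105516-152111376) had 131, 61.5 and 63.0 CPM in N and 171.9, 146 and 102 in KP. N 1 was above KP 3, and N 2 and 3 were below all of KP. The log2 fold change was 0.71 ± 0.38 (adjusted p = 0.21), lost without any 1 of N vehicle 2 and 3 and KP vehicle 1 and 2. The cytosolic Prdx1, Prdx2 and Prdx6 and Prdx5, which is found in several organelles, had polysome log2 fold changes of 0.28 ± 0.24, 0.04 ± 0.25, 0.24 ± 0.19 and 0.10 ± 0.38, none past the threshold in edgeR, although all 3 Prdx6 values in KP were above those in N. Without both lysates of N replicate 3, Prdx1 (0.55 ± 0.19, adjusted p = 0.0638), Prdx5 (0.68 ± 0.25, adjusted p = 0.0816) and Prdx6 (0.31 ± 0.15, adjusted p = 0.151) were called higher in KP.

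Nqo1 and Hmox1 encode the quinone reductase and the haem oxygenase that are classic NRF2 targets. Nqo1 (chr8:107388225-107403206, minus strand) was the gene with the largest fold among those higher, on a low level. It had 1.57, 0.144 and 0.762 CPM in N polysome libraries and 3.43, 3.19 and 1.06 in KP. N 1 was above KP 3, and the spread within N exceeded 10-fold. Its mRNA was 3.09-fold higher on polysomes (1.63 ± 0.92, adjusted p = 0.244), at the edge of the threshold and lost without any 1 of N vehicle 2 and 3 and KP vehicle 1 and 2, with 1.56 ± 0.89 in total mRNA (adjusted p = 0.311 in edgeR, and called higher by DESeq2 at 0.209). Hmox1 (chr8:75093621-75100589) had 59.5, 29.3 and 76.6 CPM in N and 97.6, 77.8 and 47.4 in KP. Its groups overlapped, with a log2 fold change of 0.43 ± 0.44 (adjusted p = 0.525).

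The superoxide dismutases turn superoxide into hydrogen peroxide, and catalase splits the peroxide in peroxisomes. Sod1 (chr16:90220754-90226329), the cytosolic copper and zinc enzyme, had 353, 343 and 559.5 CPM in N polysome libraries and 829, 718 and 640.4 in KP. All KP libraries were above all N libraries, and N 3 was the highest of its group. The log2 fold change was 0.80 ± 0.27 (adjusted p = 0.0632), and in total mRNA 0.41 ± 0.21 (adjusted p = 0.262), with 306, 433 and 447 CPM in N and 493, 537 and 546 in KP. Sod2, the mitochondrial manganese enzyme, had 0.28 ± 0.22 on polysomes (adjusted p = 0.391). Cat (chr2:103453849-103485160, minus strand) had 63.5, 77.3 and 45.2 CPM in N total libraries and 77.6, 91.1 and 83.9 in KP. The top N value, replicate 2, was just below the lowest KP value. Its total mRNA was higher in KP (0.44 ± 0.21, adjusted p = 0.217), a call lost without any 1 vehicle lysate except N vehicle 2, and on polysomes it had 0.24 ± 0.21 (adjusted p = 0.444).

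The glutaredoxins reduce glutathione-protein disulfides or, for Glrx5 and Glrx3, handle iron-sulfur clusters, and the mitochondrial Glrx5 and the cytosolic Glrx moved in opposite directions. Glrx5 (chr12:105032688-105042906) had 105, 70.1 and 83.5 CPM in N polysome libraries and 210.0, 212 and 119 in KP. The lowest KP library, replicate 3, was above the highest N library. Its mRNA was 2.09-fold higher on polysomes (1.06 ± 0.26, adjusted p = 0.0217) and 0.43 ± 0.19 on the log2 scale in total mRNA (adjusted p = 0.179, lost without any 1 of N vehicle 2 and 3 and KP vehicle 1 and 2). Glrx (chr13:75839868-75850154) had 105, 60.1 and 83.3 CPM in N and 32.5, 27.3 and 60.5 in KP polysome libraries, and 122, 94.3 and 102 and 27.1, 23.9 and 56.9 in total mRNA. The total libraries did not overlap, and on polysomes KP 3 was level with N 2. The log2 fold change was -1.04 ± 0.42 on polysomes (adjusted p = 0.107, lost without KP vehicle 1 or KP vehicle 2) and -1.56 ± 0.38 in total mRNA (adjusted p = 0.0291). Glrx2 and Glrx3 had 0.24 ± 0.20 and 0.35 ± 0.26 on polysomes and did not pass.

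**Figure D3:**
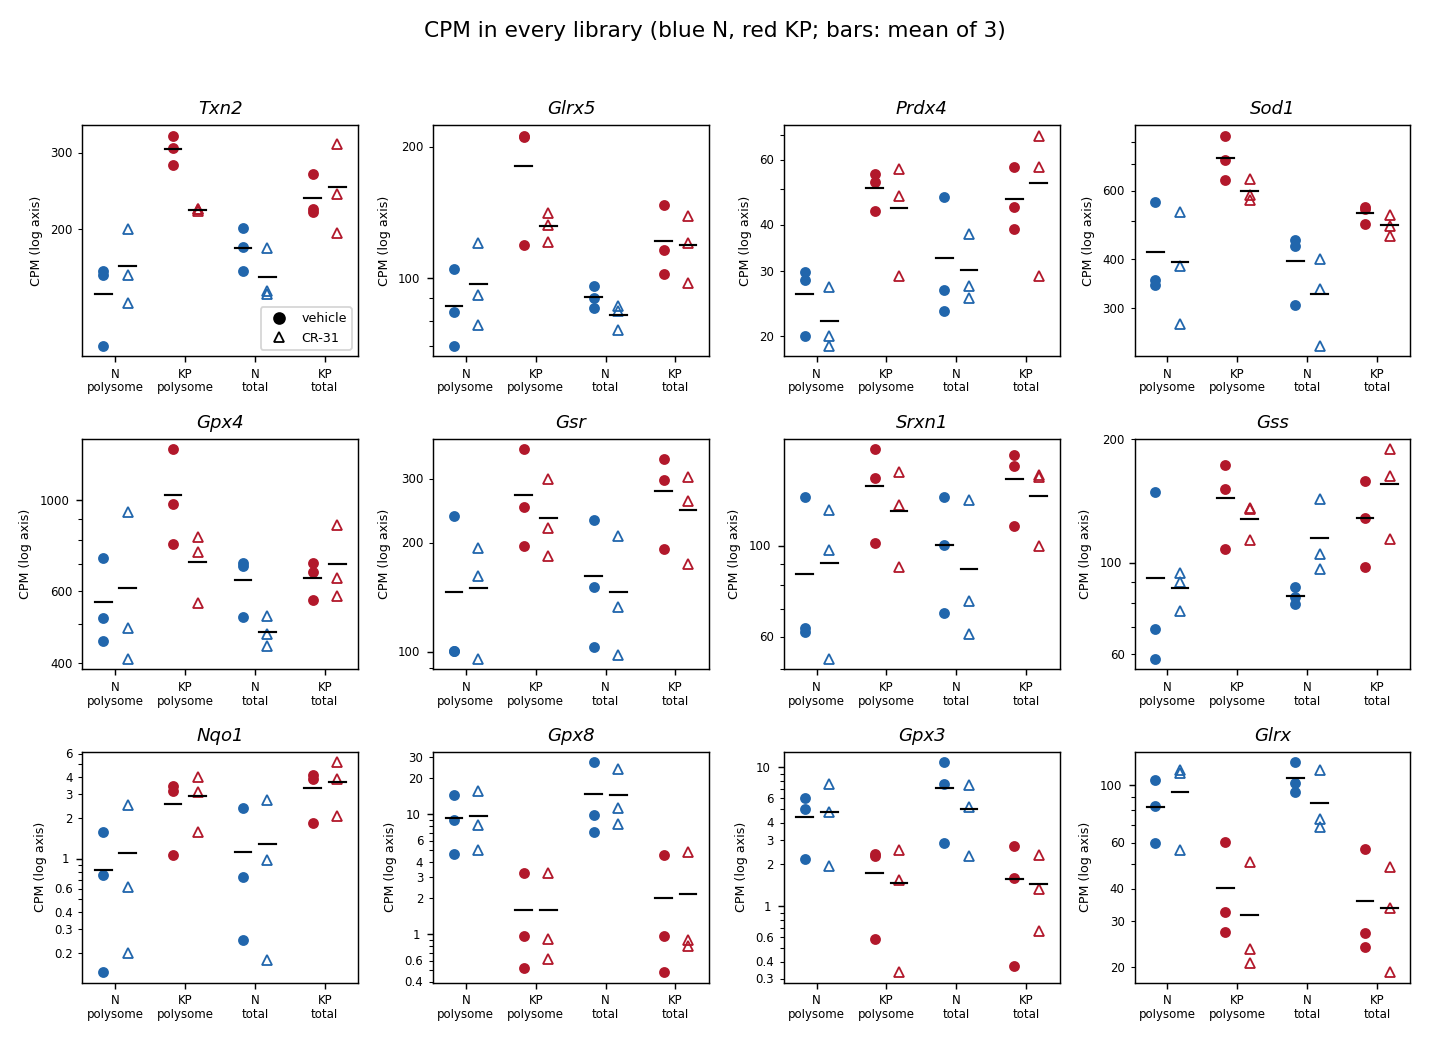
CPM on a log axis in every library for the 12 called members with the largest polysome changes, N in blue and KP in red, filled circles for vehicle, open triangles for CR-31 and bars at the mean of 3. The vehicle circles of Txn2, Glrx5, Prdx4, Sod1, Gpx4 and Gpx8 do not overlap between N and KP on polysomes, and those of Gpx4 overlap in total mRNA.

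Over all genes 20.9% were called higher and 22.2% lower on polysomes, and 13.1% and 15.4% in total mRNA, and subsets this small are given as counts beside those shares. By compartment, the 6 mitochondrial members gave 3 higher on polysomes (Txn2, Glrx5 and Prdx3) and 0 lower, a median log2 fold change of 0.46, and 2 higher in total mRNA (Glrx5 and Prdx3). The 3 endoplasmic reticulum members gave 1 higher (Prdx4) and 1 lower (Gpx8). The 10 textbook NRF2 targets among the members gave 3 higher on polysomes (Gsr, Srxn1 and Nqo1), 0 lower and a median log2 fold change of 0.50, and 1 higher in total mRNA (Gsr), so 3 of 10 is near the background. The 5 selenoprotein genes gave 1 higher (Gpx4) and 1 lower (Gpx3) on polysomes, a median of 0.06, and 2 lower in total mRNA (Gpx3 and Gpx1).

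Antioxidant response elements were looked for by the core letters TGACNNNGC on either strand in the 250 bases before the start of each gene (RefSeq, GRCm38.p6). Of 31 members with a promoter entry 7 hold a match (22.6%), beside 3112 of 27025 genes (11.5%), and 3 of 7 of the textbook targets (42.9%). The matching windows are shown because they are the places where NRF2 with a small MAF protein could be looked for. Each runs 5′ to 3′ on the gene's strand, with the match in capitals. Nfe2l2 and Maff hold it on the gene's own strand, and the other 5 hold its reverse complement.
Nfe2l2, chr2:75704884-75704913, 240 to 232 bases before the start: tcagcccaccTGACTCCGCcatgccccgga
Maff, chr15:79346499-79346528, 112 to 104 bases before: gggcgtctcaTGACTCTGCcactggaaaga
Mafg, chr11:120633750-120633779, 222 to 214 bases before: ctctgcaggaGCACGGTCAacccggcgagc
Gclm, chr3:122245413-122245442, 134 to 126 bases before: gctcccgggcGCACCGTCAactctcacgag
Txnrd1, chr10:82859104-82859133, 92 to 84 bases before: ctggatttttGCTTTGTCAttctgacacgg
Prdx1, chr4:116685456-116685485, 133 to 125 bases before: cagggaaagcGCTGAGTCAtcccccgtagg
Sod1, chr16:90220696-90220725, 56 to 48 bases before: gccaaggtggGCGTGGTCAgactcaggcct
Of these 7 genes Sod1 was higher on KP polysomes and Maff was lower in KP total mRNA, while Nfe2l2, Mafg, Gclm, Txnrd1 and Prdx1 passed in neither. Gclc, Gsr, Prdx6 and Hmox1 have no promoter entry in the table used. The Txnrd1 window precedes a RefSeq start that lies inside the gene as GENCODE places it, not at the GENCODE start. A match is a description of the letters and not evidence of a bound site.

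Genes that act alongside the members were counted in the same vehicle comparison, beside 20.9% of all genes higher and 22.2% lower and a median of -0.034 on polysomes. Of 22 other NRF2 target genes tested (24 listed, median 0.31), 5 were higher on KP polysomes and 0 lower, among them the carbonyl reductase Cbr3 (1.30 ± 0.69, adjusted p = 0.216), the porphyrin transporter Abcb6 (1.27 ± 0.25, adjusted p = 0.00851) and Ugdh, which makes the substrate of glucuronidation (1.10 ± 0.38, adjusted p = 0.0706). Of 18 tested genes that supply NADPH (20 listed, median 0.58), 7 were higher and 0 lower, including the pentose phosphate enzymes Pgls (1.38 ± 0.39, adjusted p = 0.0368) and Pgd (0.97 ± 0.29, adjusted p = 0.0401) and the mitochondrial malic enzyme Me2 (1.19 ± 0.29, adjusted p = 0.0221). Of the 14 genes listed for selenoprotein synthesis, among them general RNA-binding proteins (median 0.29), 5 were higher and 0 lower, with the selenocysteine elongation factor Eefsec at 0.71 ± 0.21 (adjusted p = 0.0419). The 13 tested partners and regulators of KEAP1 and NRF2 (14 listed, median -0.22) gave 1 higher and 5 lower, led by the related factor Nfe2l3 (-4.27 ± 0.71, adjusted p = 0.00514), and the repressor Bach1, which competes for the same elements, was also lower (-0.81 ± 0.31, adjusted p = 0.0923). Among the 9 tested of 21 listed genes of enzymes that produce superoxide or hydrogen peroxide (median -2.57 over those tested), 7 were lower and 0 higher, including the dual oxidase Duox2 (-4.03 ± 1.4, adjusted p = 0.0758) and the NADPH oxidase subunit Cyba (-2.80 ± 1.1, adjusted p = 0.106). The thioredoxin-binding repressor Txnip was lower (-2.16 ± 0.62, adjusted p = 0.0367) and the redox chaperone Park7 higher (1.34 ± 0.34, adjusted p = 0.0244), in a list of thioredoxin-fold and sestrin genes with 3 higher and 6 lower of 22 tested (29 listed, median 0.04). N libraries scattered widely for 3 of these genes. Their CPM (mean ± SD) in N and KP were 28.6 ± 31.6 and 1.75 ± 1.61 for Duox2, 222 ± 221 and 31.9 ± 23.2 for Cyba, and 635 ± 674 and 142 ± 61.8 for Txnip. Glutathione turnover gave 3 higher and 1 lower of 16 (20 listed, median -0.16), and the other selenoproteins and methionine sulfoxide reductases 1 and 1 of 7 (19 listed, median -0.22). No listed gene with a symbol beginning in Seleno gave a tested entry, so the last count leaves out most of the selenoproteins. Whether they stand under other symbols was not tested. The same lists in total mRNA, beside 13.1% of all genes higher and 15.4% lower, gave 5 higher and 0 lower (NRF2 targets), 5 and 0 (NADPH), 2 and 1 (selenoprotein synthesis), 1 and 2 (KEAP1 partners), 0 and 6 (oxidant sources), 1 and 3 (thioredoxin-fold), 4 and 1 (glutathione turnover) and 0 and 2 (the tested part of the other selenoproteins and methionine sulfoxide reductases).

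Translational efficiency, the polysome-associated level relative to the total level of the same lysate, asks whether ribosome loading differs beyond mRNA abundance. Between KP and N vehicle organoids, 0 members and 0 of all genes passed an adjusted p of 0.25 in edgeR's interaction test (6 members and 1281 of all genes at an unadjusted p below 0.05). DESeq2 called 1 member, Txn2, beside 3.27% of all genes, and a regression of polysome on total mRNA called 2, Gpx4 and Txn2, beside 10.9%. The 6 genes at an unadjusted p below 0.05 were Txn2 (0.69 ± 0.25), Gpx4 (0.77 ± 0.36), Gpx1 (0.66 ± 0.27), Gpx2 (0.62 ± 0.28) and Glrx5 (0.56 ± 0.22), with higher values in KP, and Gclc (-0.40 ± 0.19), with lower. By lysate, the log2 ratio of polysome to total was -0.02, -0.65 and 0.02 for Gpx4 in N replicates 1, 2 and 3 and 0.69, 0.84 and 0.13 in KP. For Gpx1 it was 0.26, 0.01 and -0.38 in N and 0.71, 0.71 and 0.46 in KP. For both, every KP lysate was above every N lysate. The ratio of Gpx2 was 0.27, 0.04 and -0.57 in N and 0.59, 0.64 and 0.37 in KP, and that of Txn2 was -0.02, -0.38 and -0.80 in N and 0.39, 0.20 and 0.27 in KP. Both again separated the groups, with N 3 the lowest. Gclc had -0.02, 0.12 and 0.05 in N and -0.50, -0.27 and -0.29 in KP, the reverse order without overlap. The median ratio over all genes was -0.03 in N and -0.01 in KP, and 27 of the 34 members had a fold change above 0 and 7 below (median 0.20, all genes -0.018).

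The efficiency result turned on N replicate 3, whose polysome and total libraries did not match by lysate. Without both lysates of N replicate 3, 17 members were higher in KP and 2 lower in edgeR. Here 34.8% of all genes were called, 18.5% higher and 16.3% lower. Higher were all 4 selenoprotein glutathione peroxidases, with Gpx4 at 0.92 ± 0.33 (adjusted p = 0.123), Gpx1 at 0.52 ± 0.23 (0.181), Gpx2 at 0.40 ± 0.19 (0.193) and Gpx3 at 1.00 ± 0.39 (0.141). So were all 6 peroxiredoxins, from Prdx3 at 0.30 ± 0.16 (0.248) to Prdx5 at 0.90 ± 0.22 (0.0891), and Txn2, Glrx, Glrx3, Glrx5, Gss, Sod1 and Maff. Lower were Gclc (-0.37 ± 0.17, 0.191) and Nfe2l1 (-0.32 ± 0.15, 0.211). Leaving out KP replicate 1 as well gave 19 higher and 3 lower, with Txnrd1 joining the lower ones, beside 46.4% of all genes called and 26.2% called higher. Leaving out the vehicle lysate of N 3 alone gave 8 calls beside 18.8% of all genes, and leaving out KP replicate 1 alone gave 0. Without replicate 3, N has 2 vehicle lysates. The joint setting was added after the mismatch was seen.

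**Figure D4:**
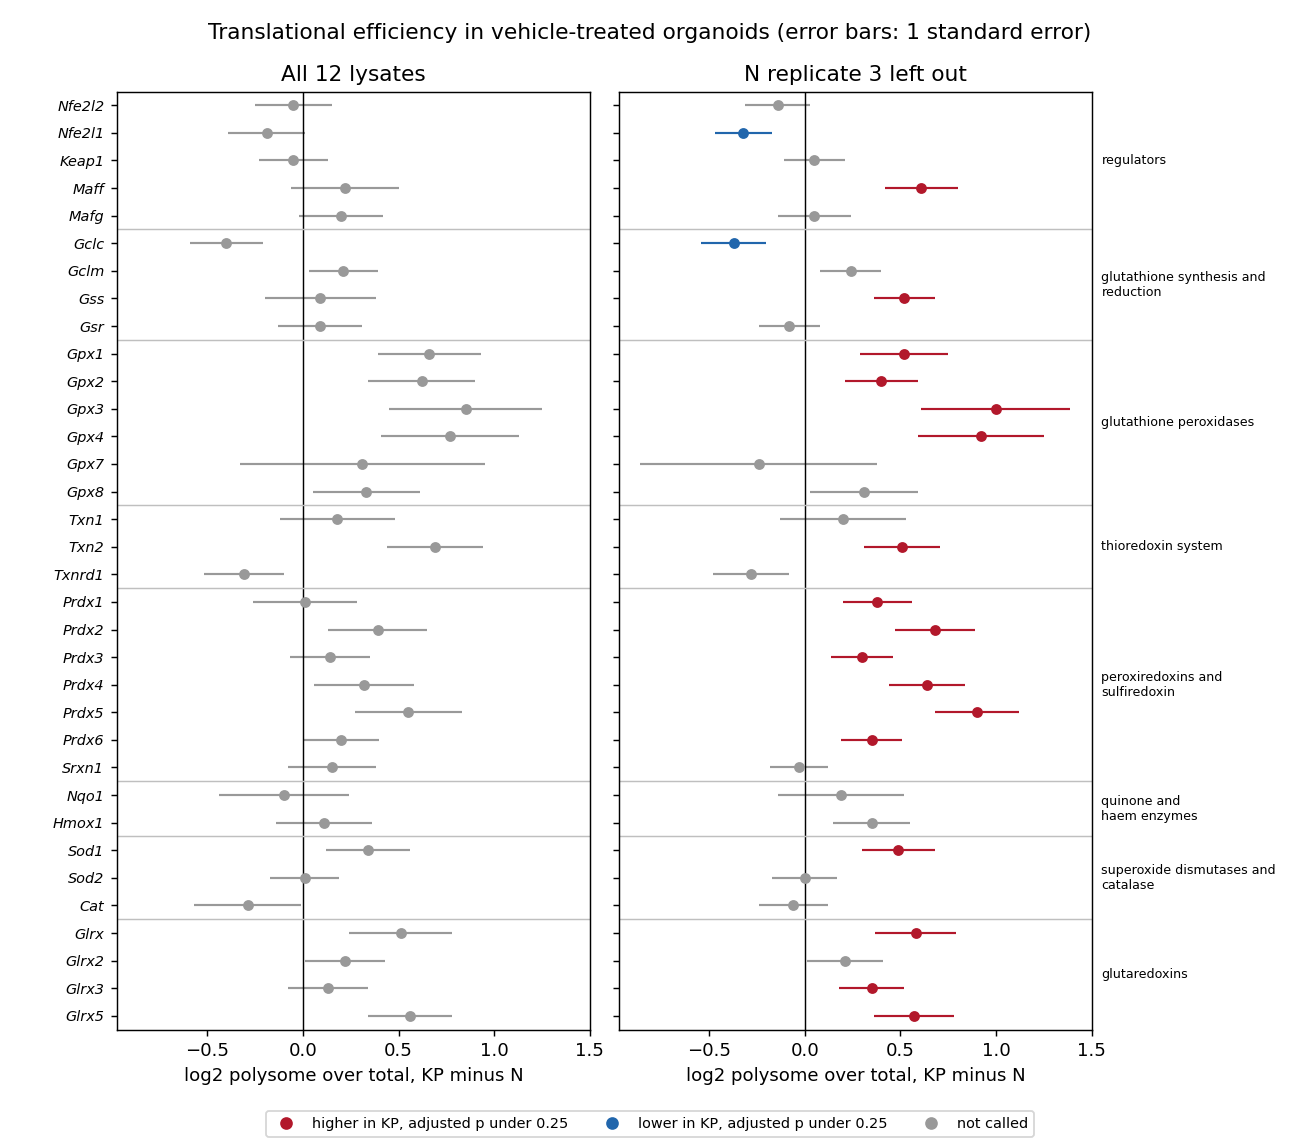
Difference between KP and N vehicle organoids in the log2 ratio of polysome-associated to total mRNA for each tested member, from all 12 lysates (left) and without both lysates of N replicate 3 (right), with bars of 1 SE and colours for an adjusted p below 0.25. No gene is coloured on the left, and on the right 17 are red (higher in KP) and 2 blue.

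KP and N organoids were also compared under CR-31. On polysomes 5 members were higher in KP (Prdx1, Prdx3, Prdx4, Sod1 and Cat) and 3 lower (Gpx3, Gpx8 and Glrx), 23.5% of the members beside 25% of all genes, 14.7% higher beside 11.2% and 8.82% lower beside 13.8%. The largest of these were Gpx8 (-2.59 ± 0.80, adjusted p = 0.0759), Gpx3 (-1.69 ± 0.76, adjusted p = 0.211) and Glrx (-1.57 ± 0.42, adjusted p = 0.0491), in the same direction as under vehicle. Prdx4 had 20.02, 27.1 and 18.9 CPM in N and 47.7, 29.02 and 56.5 in KP under CR-31, and a log2 fold change of 1.01 ± 0.27 (adjusted p = 0.0471). Every KP library was above every N library. Txn2, Glrx5 and Gpx4, called under vehicle, had 0.44 ± 0.21, 0.44 ± 0.26 and 0.21 ± 0.33 here and did not pass (adjusted p = 0.254, 0.35 and 0.748). Whether the comparisons under vehicle and under CR-31 differ is the test of the difference of CR-31 effects given at the end. In total mRNA 10 members were higher and 4 lower, 41.2% beside 39.9% of all genes, 29.4% higher beside 18.9% and 11.8% lower beside 21%. Txn2 (0.69 ± 0.21, adjusted p = 0.0521) and Gpx4 (0.55 ± 0.20, adjusted p = 0.0917) were among those higher. For translational efficiency 0 members passed in edgeR, 0 had an unadjusted p below 0.05 and DESeq2 called 0. Without N replicate 3 the polysome count was 13 higher and 3 lower beside 34.7% of all genes called, and without KP replicate 1 it was 2 and 1 beside 8.03%. Txn2, Glrx5 and Gpx4 were among the 13 and not among the 2, and without both replicates Txn2 and Gpx4 were called higher and Glrx5 was not. In total mRNA leaving out N replicate 3 gave 7 and 2 beside 27.2%, and leaving out KP replicate 1 gave 3 and 1 beside 15.7%. Of single lysates, leaving out KP CR-31 1 gave 3 calls on polysomes (9.47% of all genes) and 5 in total mRNA (18.6%), and leaving out N CR-31 2 or KP CR-31 2 gave 4 on polysomes (17.5% and 20.7%).

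Within KP organoids, vehicle against CR-31 asks which of these mRNAs gain or lose share among polysome-associated mRNA when eIF4A is blocked. This comparison uses the same vehicle KP libraries as KP against N. Each library was scaled to its own total, so a loss shared by all mRNAs cannot be seen. The study reports a dose-dependent fall in new protein synthesis in KP organoids under CR-31. On polysomes 0 members passed in edgeR (1 at an unadjusted p below 0.05, 0 of all genes called and 406 at an unadjusted p below 0.05), and DESeq2 called 0. The member at an unadjusted p below 0.05 was Gpx1, with 731, 764 and 609.9 CPM under vehicle and 444, 481 and 491 under CR-31. Its 3 CR-31 libraries were below its 3 vehicle libraries (-0.57 ± 0.23, unadjusted p = 0.0312 in edgeR). Txn2 (307, 328 and 282 CPM under vehicle, 223, 220.4 and 222 under CR-31) and Prdx6 also had all CR-31 libraries below all vehicle libraries, and Nfe2l1 had them above. Gpx4 had 979, 1331 and 782 CPM under vehicle and 562, 814 and 747 under CR-31, with overlapping groups (-0.54 ± 0.33). Over the members 26 fold changes were below 0 and 8 above (median -0.17, all genes -0.021).

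Replicate numbers pair vehicle with CR-31 lysates of the same organoid kind, and a fit with the replicate as a block called 5 members lower under CR-31 and 0 higher. These were Gpx1 (-0.57 ± 0.21, adjusted p = 0.205), Gpx4 (-0.53 ± 0.19, 0.199), Gpx2 (-0.52 ± 0.21, 0.224), Glrx (-0.37 ± 0.15, 0.22) and Prdx5 (-0.42 ± 0.19, 0.25, just under the threshold before rounding), beside 19.3% of all genes called, 8.30% higher and 11.1% lower. By replicate, the log2 ratio of CR-31 to vehicle was -0.65, -0.57 and -0.28 for Gpx1, -0.56, -0.33 and -0.48 for Gpx2 and -0.73, -0.61 and -0.04 for Gpx4. All 9 were below 0, and Gpx4 in replicate 3 was close to 0. With the block and without both lysates of N replicate 3, which enter through the shared estimate of spread, 17 members were lower and 1, Nfe2l1, higher, beside 54.9% of all genes called, 25.4% higher and 29.5% lower. With the block and without KP replicate 1, whose CR-31 polysome and total libraries did not match, 0 members passed (Gpx1 at -0.49 ± 0.29, adjusted p = 0.646). Each sequencing lane sets 2 libraries of one treatment against 1 of the other, in part with different replicate numbers, so it gives values without a test: 18 of the members were lower under CR-31 in one and 15 in the other, with medians of -0.09 and 0.08 beside 0.06 and 0.04 over all genes.

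In KP total mRNA 0 members passed in edgeR (0 at an unadjusted p below 0.05, 109 of all genes, and 0 called by DESeq2), with 16 fold changes above 0 and 18 below. For translational efficiency 0 members passed or had an unadjusted p below 0.05 in edgeR, and DESeq2 called 0. With the block and without N replicate 3, 12 members passed for efficiency, 11 lower (among them Gpx1, Gpx2, Gpx4, Txn2, Glrx5, Prdx2 and Prdx5) and Txnrd1 higher, beside 45.4% of all genes called and 24.1% called lower.

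**Figure D5:**
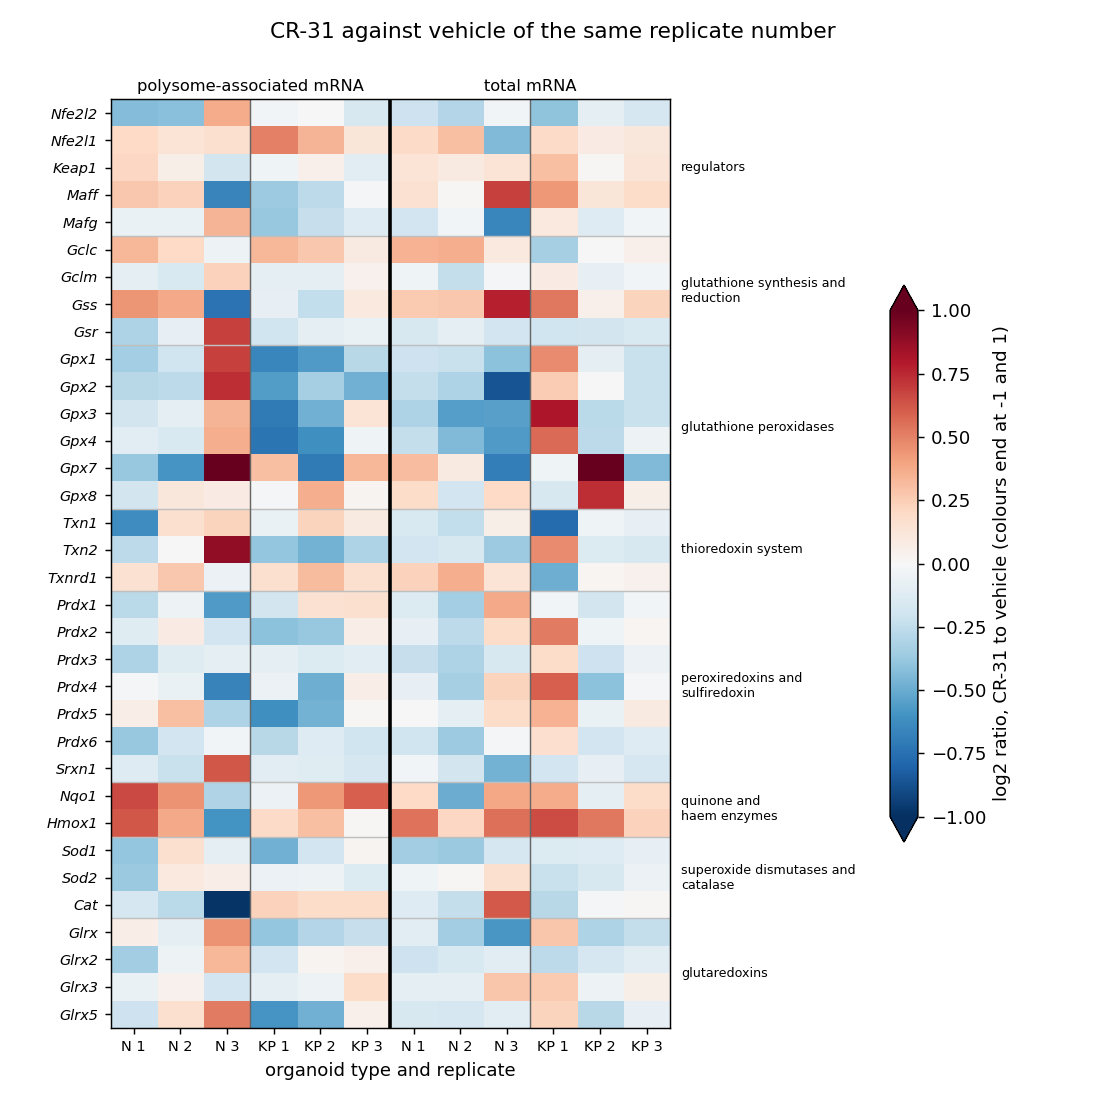
Log2 ratio of CR-31 to vehicle in each replicate pair, members in lines and N 1 to 3 and KP 1 to 3 in columns, for polysome-associated mRNA (left) and total mRNA (right); red is higher and blue lower under CR-31, and colours end at -1 and 1. On polysomes Gpx1, Gpx2, Gpx4 and Txn2 are blue in KP and red in N 3.

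In N organoids CR-31 gave 0 calls among the members on polysomes, in total mRNA and for translational efficiency in edgeR, with 0 at an unadjusted p below 0.05 and 0 by DESeq2. As labelled, the polysome ratios in N did not share a direction: for Gpx1 they were -0.34, -0.20 and 0.68, for Gpx2 -0.28, -0.26 and 0.74 and for Txn2 -0.26, 0.00 and 0.89. Replicate 3 stood above 0 where replicates 1 and 2 were at or below it, and its vehicle and CR-31 polysome libraries each correlated best with the other's total library, so the sign of its ratios rests on labels that those correlations go against. In total mRNA the ratios of these genes were, as labelled, below 0 in all 3 N pairs, with -0.21, -0.22 and -0.41 for Gpx1, -0.24, -0.31 and -0.86 for Gpx2 and -0.19, -0.16 and -0.36 for Txn2. An exchange of the total libraries of replicate 3 would turn the sign of the last value of each gene. With the replicate block alone 0 members passed in N. With the block and without N replicate 3, Gss and Hmox1 were called higher and Nfe2l2 lower on polysomes, beside 15% of all genes called. With the block and without KP replicate 1, which enters N through the shared estimate of spread, 10 members passed in N total mRNA beside 15.2% of all genes, Txnrd1, Gss, Hmox1 and Gclc higher and Gpx1, Gpx2, Gpx3, Gpx4, Sod1 and Glrx lower. Cat had polysome ratios of -0.17, -0.27 and -0.98 in N and 0.23, 0.18 and 0.18 in KP. Those of N 3 and KP 1 come from replicates whose polysome and total libraries did not match, and which library departs from its label was not tested. The test of the difference between N and KP did not pass (0.56 ± 0.30, adjusted p = 0.999).

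The test of the difference between the CR-31 effect in KP and that in N called 0 members on polysomes, in total mRNA and for translational efficiency in edgeR. At an unadjusted p below 0.05 stood Txn2 on polysomes (-0.68 ± 0.30) and Gpx1 (-0.87 ± 0.38), Gpx2 (-0.99 ± 0.40) and Txn2 (-0.89 ± 0.36) for efficiency, and 0 members in total mRNA. DESeq2 called these 3 for efficiency (adjusted p = 0.242 for each, beside 2.54% of all genes called) and 0 on polysomes and in total mRNA. Without N CR-31 replicate 2, edgeR called 6 members for efficiency, beside 16.6% of all genes. With the block and without N replicate 3, 7 members passed on polysomes, beside 27% of all genes, with Cat higher in KP than in N and Maff, Gss, Hmox1, Glrx, Prdx5 and Txn2 lower.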

How the data were processed

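Polysome-associated and total mRNA of 12 organoid lysates were sequenced on 24 libraries. Per the study's methods, the authors aligned reads with HISAT2 (the methods name hg38, while the entries are mouse RefSeq genes), discarded reads mapping to several places, and made the deposited counts and RPKM values per gene with RPKMforgenes, joining overlapping genes. HISAT2 and SAMtools stand in the submitters' processing notes without versions. The members and gene lists were chosen with earlier results of these data known. Values by library are given for the called members (vehicle KP against N, either fraction) with the 12 largest polysome changes and for 10 members whatever their values (Nfe2l2, Keap1, Gclc, Gclm, Gsr, Nqo1, Hmox1, Txnrd1, Gpx4 and Cat); those of Prdx3 and Gpx1 were added after they were seen. Of each other list up to 3 called genes with the largest change are named.

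From the counts, tests were run on the 11438 single-gene entries whose count was never 0, with edgeR 4.0.16 (R 4.3.3, quasi-likelihood test, TMM, Benjamini-Hochberg adjustment over all of them), calling an adjusted p below 0.25 as in the study, since its own tool, anota2seq, was not run. Polysome and total libraries were fitted separately, each with all 4 groups. Translational efficiency was tested in 1 model of all 24 libraries, as the term for fraction by group, blocking on lysate. The scripts were tested on simulated data. Alternatives were DESeq2 1.42.0, a limma 3.58.1 regression of polysome on total mRNA, other scalings and count filters, a lane term, a replicate block and leaving out lysates. The shallowest library had 47308461 reads, and replicates differed by far more than sampling noise. Same-numbered vehicle and CR-31 libraries of 1 organoid kind deviated together (r = 0.55 to 0.89 in N and 0.45 to 0.80 in KP, over 0.1 in all 6 pairs of each). Gene positions and codons came from GENCODE M21 and promoters from RefSeq (GRCm38.p6). CPM and log2 ratios used TMM-scaled library sizes, the ratios with a prior count of 0.5. Intervals of counting error are not given. Some items of the study are not reported here.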

Additional observations from a re-analysis of the deposited data

How the results depend on the processing

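Alternatives were tallied by member for vehicle KP against N on polysomes and in total mRNA and for CR-31 on polysomes in KP and N. With the medians of the replicate ratios, 2134 values kept their call and direction, 143 lost a call and 77 gained one. A further 238 values without a call changed sign, and 0 called values did. At an adjusted p below 0.05, KP against N kept 4 members under vehicle on polysomes and 1 in total mRNA, and under CR-31 3 and 2. Over all settings that left out 1 lysate or both lysates of a replicate number, the vehicle count ranged from 7 to 17 on polysomes, 1 to 16 in total mRNA and 0 to 19 for efficiency. Under CR-31 the ranges were 3 to 16 on polysomes and 4 to 17 in total mRNA, and for the difference of CR-31 effects in efficiency 0 to 6. Without both N replicate 3 and KP replicate 1, the count was 0 for vehicle total mRNA, 22 for vehicle efficiency and 3 for total mRNA under CR-31. DESeq2 gave 1 for vehicle efficiency and 3 for the difference in efficiency, and the regression gave 2 for vehicle efficiency. The cause was not tested.

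Replicate numbers pair vehicle with CR-31 lysates and not N with KP (r from -0.17 to 0.28 between same-numbered N and KP libraries). With the replicate block, set within each organoid kind, the CR-31 effect in KP gave 5 calls on polysomes. For KP against N, where the samples share only a number, a replicate block on that number gave 17 in vehicle total mRNA (35.5% of all genes) and added Gclc and Gclm on polysomes and Gclc, Srxn1, Sod1, Nqo1, Txn2 (higher) and Gpx2 (lower) in total mRNA. The block changed no other count beyond 1.5 times. In settings added after the data were seen, the block without N replicate 3 gave 18 calls on polysomes and 12 for efficiency in KP, 3 on polysomes in N (beside 15% of all genes) and 7 for the difference on polysomes (27%). The block without KP replicate 1 gave 10 in total mRNA of N (15.2%). Gpx7, Nqo1, Gpx3 and Gpx8 had the fewest reads, and small differences in them were not detectable at this depth and spread.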
